A study of Homo sapiens with 12 samples.

Results

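Transforming growth factor β1 (TGFβ1) was given for 6 h to wt-GR cells, and the messenger RNA of these cells was compared with that of cells given vehicle (Veh). Of the 12 RNA-seq libraries of the series, the 6 labelled WT-GR give the values and changes below, 3 with TGFβ1 and 3 with vehicle, while the fit took the spread between libraries from all 12, and a gene was tested if its reads came to 10 or more in the whole series, which 18579 genes reached. The study made MDA-MB-231 cells, a line from a triple-negative breast cancer, in which 1 serine of the glucocorticoid receptor (GR) was changed to alanine with CRISPR/Cas9 (S134A-GR), and its question was what this phosphorylation site does in cells that receive TGFβ1. The wt-GR cells carry the receptor with the serine and are 1 clone that went through the same CRISPR procedure without being changed at this site, so that 1 clone stands for each receptor. All 4 groups were held for 18 h in medium with 1% charcoal-stripped serum, which is low in steroid hormones. In each line 1 group then received TGFβ1 at 10 ng/mL and the other vehicle, each for 6 h. No group received a glucocorticoid. The labels do not say whether the 3 replicates of a group were separate cultures, so the p-values measure the spread between these libraries, which may be technical.

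TGFβ1 is secreted in a latent complex and, once freed, binds the type II receptor TGFBR2, which activates the type I receptor TGFBR1. The type I receptor phosphorylates SMAD2 and SMAD3, which join SMAD4, enter the nucleus and act on genes together with other DNA-binding factors such as AP-1. The same receptors reach p38, JNK and small GTPases without SMADs. In carcinoma cells TGFβ is known for matrix production, for epithelial-mesenchymal transition (EMT) and for invasion, and several of the genes it induces are inhibitors of its own pathway.

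The wt-GR vehicle libraries held 56362036, 85816979 and 86199175 counted reads, and the wt-GR TGFβ1 libraries held 85929281, 129832227 and 93363054. These totals are above the average number of reads per sample that the study states. Whether the reads of a pair were counted together or separately is not given in the sources used here. Levels below are normalized counts, which are reads divided by a size factor of the library, and 3 reads amount to at most 4.89 normalized counts in any of the 6. Among the line's own mesenchymal markers, VIM was at 426532, 422419 and 419832 with vehicle and 493148, 510773 and 504254 with TGFβ1, while CDH1, the E-cadherin gene, was near 0, at 8.15, 9.51 and 1.05 and 10.0, 2.93 and 2.04. The luminal markers as a whole were not low, since they summed to between 115252 and 123452 with vehicle and between 124577 and 133360 with TGFβ1, most of it from KRT8 and KRT18. Summed markers of immune, endothelial and fibroblast cells ranged from 27949 to 28259, from 1969 to 2126 and from 2131 to 2201 with vehicle, and from 26590 to 27811, from 1597 to 1605 and from 3739 to 4043 with TGFβ1, and none of the 14 markers present in the files was at 0 in all 6 libraries. Nearly all of the immune sum was CD68, a lysosomal protein, with the defining marker PTPRC at 0 to 8.42. Nearly all of the fibroblast sum was PDGFRB, at 2111 to 2182 with vehicle and 3717 to 4006 with TGFβ1, with DCN, LUM, COL3A1 and FAP at 0 to 6.52. Most of the endothelial sum was PECAM1, at 1299 to 1454 and 1024 to 1068. In bulk RNA of this 1 clone, fewer cells with a transcript and less of it per cell cannot be told apart. Library 1 of the vehicle group stood apart in transcript length. For the 1013 genes with a canonical transcript of at least 8000 bases it lay at a median of 0.18 above the mean of the 6 libraries on the log2 scale, against −0.11 in vehicle library 3 and −0.055 to −0.0025 in the TGFβ1 libraries. Of these long genes 9.97% were raised and 16.7% lowered, and of the 603 genes below 1000 bases 20.1% were raised and 5.31% lowered. The part of this shift in the small changes given below was not tested.

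With TGFβ1, 2086 genes were raised (11.2% of those tested) and 1824 were lowered (9.82%), 21.0% in all, at an adjusted p under 0.05 (limma, Benjamini-Hochberg). Most of the changes were small, since 1613 of the raised and 1245 of the lowered genes moved by less than 0.5 on the log2 scale. A change of at least 1, which is 2-fold, was found for 219 raised genes (1.18%) and 206 lowered genes (1.11%). Of these, 72 and 58 had a mean level of at least 1 on the log2 CPM scale (CPM, reads scaled to the library's total), and 169 and 162 are annotated as protein-coding. The 3 TGFβ1 libraries lay above all 3 vehicle libraries for 214 of the 219 and below them for 198 of the 206, while 16.9% of all genes tested were separated in each direction. The 219 and 206 were chosen by size and adjusted p from the same values, which favours such separation. With the spread taken from the 6 wt-GR libraries alone, 1549 genes were raised and 1395 lowered. The counts moved with single libraries. Leaving out vehicle library 2 gave the fewest raised and lowered genes, 1508 and 1292, and leaving out vehicle library 3 the most, 2355 and 2022. Every gene named below as raised or lowered kept its call with each of the 6 libraries left out in turn unless a sentence says otherwise.

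**Figure D1:**
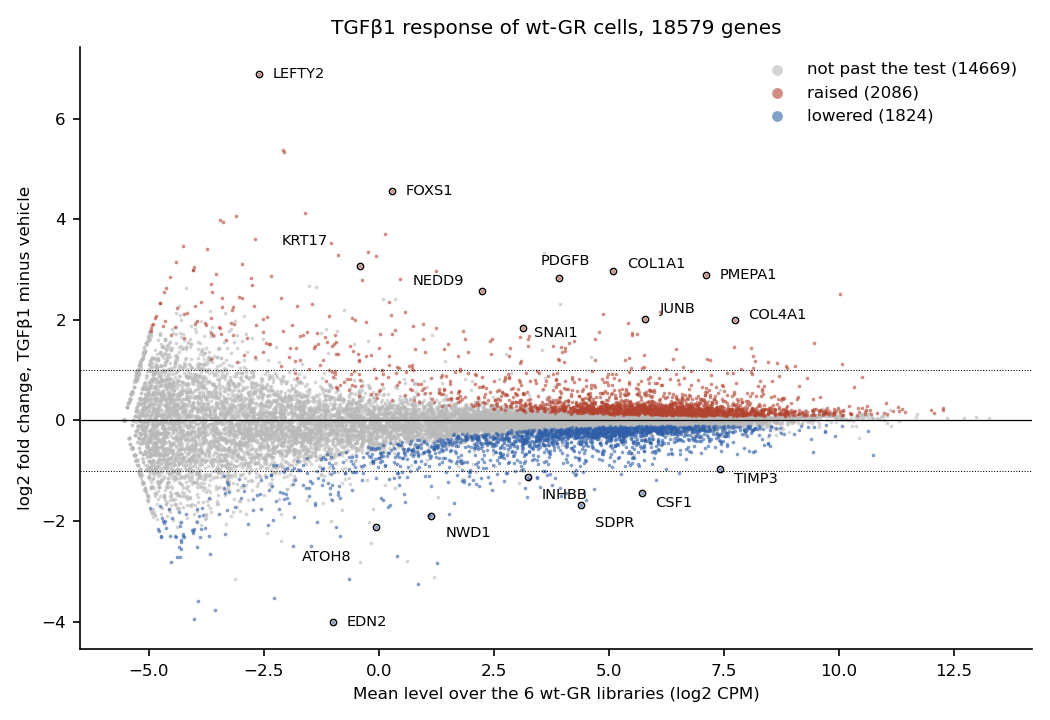
The log2 fold change of each of the 18579 genes (y axis, TGFβ1 minus vehicle, on the log2 of normalized count plus 1) is plotted against its mean level over the 6 wt-GR libraries in log2 CPM (x axis), with 2086 raised genes in red and 1824 lowered genes in blue and dotted lines at 1 and −1. Of the genes with a mean level of at least 1, 9 were raised by at least 2 and 1 was lowered by as much, and PDGFB, PMEPA1 and COL1A1 lie at 2.82 to 2.97.

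Among the 15 largest rises at levels of at least 1 log2 CPM was that of the collagen I chain COL1A1 (chr17:50184101-50201632, minus strand, hg38), which went from 1380.1, 1015 and 1063 normalized counts with vehicle to 9418, 8448 and 8968 with TGFβ1 (log2 fold change 2.97 ± 0.099 (SE), adjusted p = 6.36e-11). PMEPA1 (chr20:57648392-57711536, minus strand), a membrane protein that binds SMAD2 and SMAD3 and restrains the pathway, went from 5093, 4588 and 4487 to 36441, 35409 and 33922 (log2 fold change 2.90 ± 0.053 (SE), adjusted p = 1.24e-13). Vehicle and TGFβ1 libraries did not overlap for either gene, which was a condition for entering the 15 largest rises and, in reverse, the 15 largest falls. PDGFB, a growth factor for mesenchymal cells, rose 7.05-fold, from 531 ± 77.4 to 3738 ± 109 (SD, n = 3 per group, as for all values with ± below). EDN1, the vasoconstrictor peptide endothelin-1, rose 4.31-fold, from 1311 ± 118 to 5647 ± 109. UCN2, a peptide of the corticotropin-releasing family, rose 4.45-fold, from 3062 ± 128 to 13626 ± 490.1. These 3 secreted factors were separated from vehicle in every library, by the same condition. NEDD9, a scaffold of focal adhesions, rose 6.01-fold, and the transcription factors JUNB and SNAI1 rose 4.01-fold and 3.58-fold. ANGPTL4, an inhibitor of lipoprotein lipase, rose 3.83-fold and PCDH1, a protocadherin of cell-cell contacts, rose 3.60-fold. Further collagens in the group of largest rises were COL4A1 (3.97-fold) and COL7A1 (3.42-fold).

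The group of largest rises also held some genes whose reads cannot be assigned with certainty. The long non-coding RNA NKILA (chr20:57710156-57712780, plus strand) rose 3.45-fold, but its start overlaps that of PMEPA1 on the other strand, and whether reads were counted by strand is not given in the sources used here, so reads of the pair cannot be told apart. Of the 75-base stretches in the canonical transcript of UCN2, 15.7% also occur in PFKFB4. Of the genes that passed at these levels, the largest value belonged to the GTPase gene HRAS, which went from 29.3, 112 and 139 to 247, 703 and 1327 (log2 fold change 2.97 ± 0.85 (SE), adjusted p = 0.0232). Its libraries were spread more than 4-fold within each group. The call was lost without vehicle library 1 or TGFβ1 library 2 or 3, where the adjusted p reached 0.11, and 64.7% of its stretches also lie on alternate scaffolds of hg38. Of the lowered genes, RPS9, a ribosomal protein gene, went from 316, 862 and 749.7 to 47.8, 102 and 112 (log2 fold change −2.83 ± 0.80 (SE), adjusted p = 0.0215), with 62.1% of its stretches on such scaffolds and an adjusted p of up to 0.094 without vehicle library 2 or TGFβ1 library 1. Whether the authors' alignment index held alternate scaffolds is not given in the sources used here.

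The counts of each gene list below stand against 11.2% raised and 9.82% lowered over all genes tested. Of the 11607 genes with a mean level of at least 1 log2 CPM, 1891 were raised and 1551 lowered. The 29 gene lists examined were chosen with earlier results of these data known. Among them, SMAD pathway feedback, a list made mostly of inhibitors of SMAD signalling, had the largest share of raised members. Of 18 members tested, 11 were raised, 6 of them by at least 1, and 2 were lowered, with a median of 0.23 against −0.0046 over all genes tested, and the lowered count was 1 without vehicle library 1 or 3 or TGFβ1 library 1 or 2, and with the wt-GR libraries alone. SMAD7 (chr18:48919853-48950965, minus strand), the inhibitory SMAD that blocks the type I receptor, went from 1009, 875 and 902 normalized counts to 2192, 2143 and 2029 (log2 fold change 1.19 ± 0.067 (SE), adjusted p = 1.49e-08). SKIL, the co-repressor SnoN that SMADs recruit, rose 3.07-fold, from 1383 ± 108 to 4248 ± 43.7. LDLRAD4, a membrane protein related to PMEPA1, rose 4.35-fold, from 52.5 ± 6.05 to 228 ± 16.6. None of these 3 genes had overlapping groups. The ubiquitin ligases SMURF2 and SMURF1 rose by less, at 0.54 (adjusted p = 4.35e-08) and 0.42 (adjusted p = 2.25e-05) on the log2 scale, as did SKI at 0.28 (adjusted p = 0.000602) and FKBP1A, which keeps the type I receptor inactive, at 0.17 (adjusted p = 0.00776). Of the stretches of FKBP1A, 25% also occur in its near copy FKBP1C. CITED2, a partner of the co-activators CBP and p300, was lowered at −0.78 (adjusted p = 6.68e-10). SMAD6, BAMBI, USP15, TGIF1 and TRIM33 did not pass, with values between −0.15 and 0.15.

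LEFTY1 and LEFTY2, secreted antagonists of the related ligand Nodal, belong to the same list and changed from very low levels. LEFTY2 (chr1:225936598-225941383, minus strand) had no read in any vehicle library and stood at 119, 96.7 and 139.5 with TGFβ1, at least 24.2-fold higher than 3 reads in the shallowest vehicle library allow. LEFTY1 (chr1:225886282-225911382, minus strand) went from 45.6, 50.7 and 43.2 to 375, 307 and 321 (log2 fold change 2.82 ± 0.32 (SE), adjusted p = 1.79e-05). Both genes were separated from vehicle in every library. They are neighbours and near copies, so that 23.6% of the stretches of LEFTY2 also occur in other genes, mostly LEFTY1, and 52.3% of those of LEFTY1 do.

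The promoters of 3 raised genes are shown because their products stand at different points of the response, an inhibitor of the receptor, a secreted peptide and an antagonist of a related ligand. They were picked only among raised genes whose window holds a searched motif. The presence of a motif in these 3 was thus set by the choice and is not a result. Each window runs from 250 bases before to 50 after the start of the canonical GENCODE transcript on hg38, is read along the gene's strand, and has the letters CAGAC or GTCTG, the base sequence that SMAD3 and SMAD4 recognise and its complement, in capitals. The windows lie at chr18:48950916-48951215 (minus strand), chr6:12290111-12290410 (plus strand) and chr1:225941171-225941470 (minus strand).
SMAD7: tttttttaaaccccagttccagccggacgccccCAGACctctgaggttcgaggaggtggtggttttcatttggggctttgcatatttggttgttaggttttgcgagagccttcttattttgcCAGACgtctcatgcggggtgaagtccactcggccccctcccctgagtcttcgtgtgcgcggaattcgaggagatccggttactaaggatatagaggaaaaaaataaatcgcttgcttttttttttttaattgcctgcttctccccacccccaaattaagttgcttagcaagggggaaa
EDN1: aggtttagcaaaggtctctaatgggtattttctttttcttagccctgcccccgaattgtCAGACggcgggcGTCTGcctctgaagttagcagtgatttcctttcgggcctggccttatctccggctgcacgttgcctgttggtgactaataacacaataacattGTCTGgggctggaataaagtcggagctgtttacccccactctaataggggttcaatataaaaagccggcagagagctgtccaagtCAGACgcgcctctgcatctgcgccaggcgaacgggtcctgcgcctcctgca
LEFTY2: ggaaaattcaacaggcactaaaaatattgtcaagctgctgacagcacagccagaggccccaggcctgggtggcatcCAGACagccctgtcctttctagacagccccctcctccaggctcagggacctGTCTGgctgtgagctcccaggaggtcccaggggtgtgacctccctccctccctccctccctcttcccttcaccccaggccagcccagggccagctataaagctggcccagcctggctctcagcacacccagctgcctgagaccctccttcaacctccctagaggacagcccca
Counted from the start, the motif begins at −217 and −128 in SMAD7, at −191, −179, −86 and −1 in EDN1, and at −174 and −123 in LEFTY2. The 5 letters are common. They occur on 1 strand or the other in 43.99% of all 61228 promoters of this length and in 43.3% of those of the 16578 tested genes with a matched start, against 103 of 192 (53.6%) for the genes raised by at least 1 and 90 of 186 (48.4%) for those lowered by at least 1. Over all raised genes the share was 43.4% and over all lowered genes 40.6%. The AP-1 letters TGACTCA or TGAGTCA were in 3.48% of the promoters of tested genes, in 12 of 192 (6.25%) for genes raised by at least 1 and in 3.23% for genes lowered by at least 1, and over all raised genes the share was 3.39%. The 8-letter palindrome GTCTAGAC was in 0.127% of tested genes and in 1 raised gene, and a pair of GR half-sites was in 0.205% of tested genes, in none of the 192 and in 1 of the 186. The TEAD letters GGAATG were in 11.1%, 8.85% and 12.4%. CAGAC and its complement do not lie within the palindrome. These are counts of letters in a short window and not of binding.

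Ligands, their binders and the receptors moved in both directions. Of 24 members, 10 were raised and 5 lowered, with a median of 0.024, whose sign changed without vehicle library 3 (−0.0056). TGFB1 itself (chr19:41301587-41353922, minus strand) went from 13275, 13394 and 15493 to 27249.7, 26773 and 26419 (log2 fold change 0.94 ± 0.053 (SE), adjusted p = 1.49e-08). LTBP3 and LTBP2, which hold latent TGFβ in the matrix, rose 3.30-fold and 2.29-fold, and LTBP1 and LTBP4 were raised at 0.40 (adjusted p = 0.00187) and 0.38 (adjusted p = 0.000110). The activin antagonists FSTL3 and FST rose 3.32-fold, from 2332 ± 167 to 7741 ± 136, and 2.20-fold, from 527 ± 59.1 to 1161 ± 68.8. The group of binders and antagonists had no lowered member. ENG, the co-receptor endoglin, rose 1.71-fold, whereas TGFBR3, the co-receptor betaglycan, fell 2.14-fold, from 2762, 2714 and 2368 to 1234, 1207 and 1229 (log2 fold change −1.09 ± 0.075 (SE), adjusted p = 1.06e-07). The signalling receptors TGFBR1 and TGFBR2 did not pass the test, at −0.12 (adjusted p = 0.15) and 0.0071 (adjusted p = 0.91), nor did SMAD2 and SMAD4, at −0.13 (adjusted p = 0.0805) and −0.0070 (adjusted p = 0.95). SMAD3 was lowered, from 34137 ± 1290.2 to 26404 ± 367 (log2 fold change −0.37 ± 0.039 (SE), adjusted p = 9.07e-06). INHBB, a subunit of activin B, went from 1253, 1337 and 1296 to 585, 572 and 622 (log2 fold change −1.13 ± 0.068 (SE), adjusted p = 3.03e-08), with no overlap. INHBA, a subunit of activin A, was raised at 1.01 (adjusted p = 0.0148), but from a low level, from 29.9 ± 8.04 to 59.8 ± 4.93, and its adjusted p reached 0.064 without vehicle library 1 or TGFβ1 library 3. TGFB3 was lowered at −0.59 (adjusted p = 0.00186).

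The BMP arm uses other SMADs and induces the ID genes, which block differentiation factors. Of 18 tested members 3 were raised and 3 lowered, 16.7% each, against 11.2% and 9.82% of all genes tested. The median was 0.00082, and its sign changed with single libraries, from −0.043 without vehicle library 3 to 0.033 without vehicle library 2. BMP4, a ligand, fell 2.05-fold, from 12324 ± 212 to 6003 ± 238, and its target ATOH8 fell 4.39-fold, from 168, 157 and 225 to 30.0, 50.5 and 44.8 (log2 fold change −2.12 ± 0.22 (SE), adjusted p = 6.27e-06). ID3 was lowered at −0.70 (adjusted p = 0.000520), while ID1, from 3502 ± 365 to 3911 ± 20.7, did not pass (0.16, adjusted p = 0.0731). NOG, which encodes the BMP antagonist noggin, was raised at 0.85 (adjusted p = 2.38e-05), as were the receptor BMPR2 at 0.46 (adjusted p = 0.00677) and the procollagen protease BMP1 at 0.54 (adjusted p = 6.87e-06). BMPR2 fell to 0.31 without vehicle library 3.

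**Figure D2:**
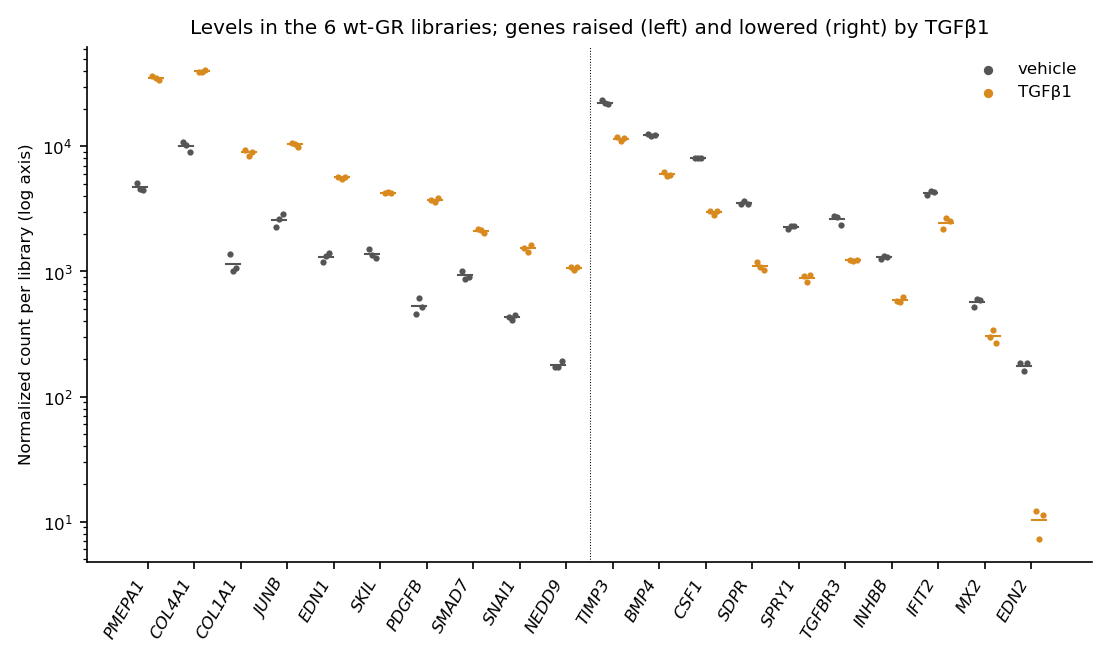
Normalized counts of 20 genes in the 6 wt-GR libraries (log axis), grey for vehicle and orange for TGFβ1, with a line at each mean (n = 3), and genes raised by TGFβ1 left of the dotted line and genes lowered right of it. The libraries of the groups do not overlap for any of the 20 genes, which was a condition for those taken from the largest rises and falls.

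Of the factors that drive EMT, SNAI1 (chr20:49982980-49988886, plus strand) changed most among those that passed, from 430.2, 410.1 and 449.6 to 1546, 1437 and 1632 (log2 fold change 1.84 ± 0.078 (SE), adjusted p = 7.75e-10), and SNAI2, also a repressor of E-cadherin, rose by less, from 2584 ± 36.5 to 3239 ± 155 (log2 fold change 0.32 ± 0.050 (SE), adjusted p = 0.000317). TCF4 was raised from a low level, from 53.6 ± 18.8 to 128 ± 7.17, and HMGA2, a chromatin protein, at 0.38 (adjusted p = 5.29e-05). VIM, which encodes the filament protein vimentin, was raised at 0.25 (adjusted p = 0.000184). ZEB1 and ZEB2 did not pass, at 0.12 (adjusted p = 0.15) and −0.033 (adjusted p = 0.82), and CDH2, the N-cadherin gene, stood at 34.2 ± 9.20 and 50.9 ± 3.77 (0.59, adjusted p = 0.0988). In all, 5 of 16 tested members were raised and none was lowered, with a median of 0.072, while 1 was lowered without vehicle library 1. The median ranged from 0.043 to 0.29 over the settings, with 0.28 without vehicle library 1, 0.21 without TGFβ1 library 3 and the highest under a stricter filter on low counts (edgeR filterByExpr).

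AP-1 is a dimer of JUN and FOS proteins, and of 22 tested members of its list 8 were raised and 3 lowered. JUNB (chr19:12791486-12793315, plus strand) went from 2250.2, 2642 and 2883 to 10726, 10519 and 9968 (log2 fold change 2.01 ± 0.074 (SE), adjusted p = 1.69e-10), and JUN and IER2 were raised at 0.50 (adjusted p = 1.40e-07) and 0.61 (adjusted p = 1.27e-06). The FOS-like genes FOSL1 and FOSL2 were lowered, from 30306 ± 822 to 19887 ± 146 and from 17994 ± 489.9 to 13803 ± 306 (log2 fold changes −0.61 and −0.38), and FOS itself did not pass (0.055, adjusted p = 0.81). MAFK, MAFF and SRF were raised at 0.35, 0.29 and 0.18, while EGR1 and ATF3 did not pass, at 0.18 (adjusted p = 0.0871) and 0.067 (adjusted p = 0.62).

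Among 28 lineage factors, 10 were raised and 8 lowered, or 5 lowered without vehicle library 2. The forkhead gene FOXS1 went from 16.3, 19.0 and 32.6 to 554, 542 and 516 (log2 fold change 4.57 ± 0.25 (SE), adjusted p = 1.08e-08), with no overlap. BHLHE40, a repressor tied to the circadian clock, rose 2.23-fold, from 22102 ± 679.8 to 49361 ± 1515, whereas its relative BHLHE41 was lowered, from 1106 ± 3.31 to 633 ± 47.6. KLF7 and RUNX3 were raised at 0.94 (adjusted p = 4.90e-07) and 0.84 (adjusted p = 0.000431), and RUNX2 and SOX9 lowered at −0.39 (adjusted p = 0.00271) and −0.36 (adjusted p = 4.12e-05). KLF10, known as a TGFβ-inducible early gene, was raised at 0.14 (adjusted p = 0.0122). KLF11, its relative, did not pass (−0.10, adjusted p = 0.36). The ETS factors ETS1 and ETS2 were raised at 0.24 and 0.30 and ETV4 lowered at −0.21.

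Collagens had more members raised by at least 1 than any other of the lists. Of 23 members 11 were raised, 10 of them by at least 1, and 2 were lowered, with a median of 0.17, or 0.60 under the stricter filter. Without vehicle library 2 or TGFβ1 library 1 or 2, 1 collagen was lowered. The chains of collagen IV, the network of basement membranes, are encoded head to head, and COL4A1 went from 10741, 10318 and 8967 to 39109, 39567 and 40486 and COL4A2 from 31633, 30013 and 27479.9 to 64845, 61858 and 62866 (log2 fold changes 1.99 and 1.09). Neither had overlapping groups. COL7A1, which anchors epidermis to dermis, went from 1434, 1355 and 1394 to 5082, 3916 and 5318 (log2 fold change 1.76 ± 0.22 (SE), adjusted p = 3.69e-05). COL5A1 and COL6A3 rose 2.19-fold and 2.44-fold, and COL27A1 and COL16A1 rose 2.05-fold and 2.27-fold. COL1A2, the partner of COL1A1 in collagen I, was raised from a low level, from 16.3, 20.1 and 23.2 to 47.8, 54.2 and 69.3 (log2 fold change 1.47 ± 0.34 (SE), adjusted p = 0.00640), as was COL8A2, from 26.5 ± 4.97 to 77.3 ± 8.31. COL8A1 was lowered, from 3792 ± 65.1 to 2945 ± 85.8. COL6A1 and COL6A2, the other chains of collagen VI, did not pass, at −0.025 (adjusted p = 0.69) and 0.11 (adjusted p = 0.0531), and COL3A1 stood at no more than a few normalized counts in all 6 libraries.

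Of 29 tested glycoproteins and matricellular proteins of the matrix, 10 were raised, 1 of them by at least 1, and 4 lowered. THBS1, which encodes thrombospondin-1, an activator of latent TGFβ, rose 2.10-fold, from 38304, 34018 and 30697 to 70958, 72734 and 72744 (log2 fold change 1.08 ± 0.065 (SE), adjusted p = 2.97e-08). TGFBI, a matrix protein named for its induction by TGFβ, rose 1.81-fold, from 100967 ± 2195 to 183055 ± 3726. CTGF, the matricellular protein now called CCN2, was raised at 0.49 (adjusted p = 1.27e-05), and MFAP2 and SPOCK1 at 0.52 (adjusted p = 1.69e-05) and 0.42 (adjusted p = 0.000313). LAMA3, a laminin chain, was lowered at −0.51 (adjusted p = 0.000622), as was the hyaluronan synthase HAS2 at −0.66 (adjusted p = 1.94e-05). Fibronectin, FN1, stood at 57099, 41066 and 29774 with vehicle and 46271, 45651 and 45991 with TGFβ1 and did not pass (0.16, adjusted p = 0.55). Its vehicle libraries fell in the order of the length shift given above, so that they lay on either side of the TGFβ1 libraries.

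Of 18 enzymes that fold and crosslink collagen, 7 were raised, none by as much as 1 on the log2 scale, and none was lowered, with a median of 0.16. PLOD2, a lysyl hydroxylase, was raised most among those that passed, from 25329 ± 563 to 36703 ± 1619 (log2 fold change 0.53 ± 0.039 (SE), adjusted p = 1.80e-07). The prolyl hydroxylase P4HA2, the transglutaminase TGM2 and the collagen chaperone SERPINH1 were raised at 0.25, 0.25 and 0.20. The lysyl oxidase LOXL2 did not pass (0.014, adjusted p = 0.85).

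Of 31 members of the plasminogen system and the metalloproteases, 11 were raised and 3 lowered, or 5 lowered under the stricter filter and 6 with DESeq2. PLAU, the urokinase gene (chr10:73909177-73917496, plus strand), went from 65076, 67289.7 and 70865 to 148975, 142955 and 150671 (log2 fold change 1.12 ± 0.040 (SE), adjusted p = 1.08e-10), and its receptor PLAUR was raised by less, at 0.32 (adjusted p = 0.000130). ADAM19, a membrane metalloprotease, rose 2.74-fold, from 11941 ± 174 to 32769 ± 881. MMP2 was raised from a low level, from 44.5 ± 4.62 to 102 ± 8.55, and MMP14, its activator, at 0.29 (adjusted p = 1.82e-05). The inhibitors of metalloproteases went in opposite directions, with TIMP1 raised, from 21377 ± 931 to 26938 ± 1853 (log2 fold change 0.33 ± 0.054 (SE), adjusted p = 0.000452), and TIMP3 lowered, from 23349, 22160.4 and 21708 to 11899, 11016 and 11585 (log2 fold change −0.96 ± 0.042 (SE), adjusted p = 1.04e-09). ADAMTS15 was also lowered, from 5699.7 ± 517 to 3382 ± 45.7. MMP1 and MMP9 did not pass, at 0.057 (adjusted p = 0.78) and 0.43 (adjusted p = 0.19).

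Integrins are the receptors of these matrix proteins, and 7 of 19 were raised and 2 lowered, or 4 lowered without vehicle library 3. Their median of 0.25 was 0.050 under the stricter filter and 0.17 with a pseudocount of 16. ITGB3 rose 2.24-fold, from 1079, 997 and 949 to 2177, 2237 and 2348 (log2 fold change 1.16 ± 0.079 (SE), adjusted p = 1.06e-07), although 37.5% of its stretches also occur in other annotated genes. The α chains ITGA2, ITGAV and ITGA5 were raised at 0.68 (adjusted p = 0.000119), 0.54 (adjusted p = 1.93e-05) and 0.49 (adjusted p = 1.96e-07), and the β chains ITGB1 and ITGB5 at 0.28 and 0.25, with 14.6% of the stretches of ITGB1 also in a pseudogene. ITGB8, which with the αv chain activates latent TGFβ, fell 3.12-fold, from 297, 228 and 199 to 71.1, 93.7 and 67.2 (log2 fold change −1.62 ± 0.16 (SE), adjusted p = 5.44e-06), and ITGA10 was lowered at −0.79 (adjusted p = 0.000192).

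Genes of actin bundles and adhesion scaffolds had 17 of 34 members raised and 5 lowered, or 3 lowered without vehicle library 1. NEDD9 (chr6:11183298-11382348, minus strand) went from 171, 172 and 191 to 1086, 1035 and 1086 (log2 fold change 2.58 ± 0.14 (SE), adjusted p = 8.04e-09). The smooth muscle genes TAGLN and CNN1, which bind actin, rose 2.59-fold, from 909 ± 24.9 to 2353 ± 169.9, and 2.63-fold, from 37.6 ± 4.78 to 98.9 ± 6.43, with 65.3% of the stretches of TAGLN also in an overlapping annotated gene. SPHK1, which makes sphingosine-1-phosphate, rose 2.38-fold. TPM1, TAGLN2, ACTN1 and PXN, which encode a tropomyosin, transgelin-2, an actinin and paxillin, were raised at 0.96, 0.68, 0.46 and 0.43. ACTA2, the smooth muscle actin, went the other way, but from low levels, from 62.8 ± 9.54 to 32.6 ± 8.35 (−0.94, adjusted p = 0.0152), with an adjusted p of up to 0.062 without vehicle library 1 or TGFβ1 library 2 or 3. MYLK, the myosin light chain kinase, was lowered, from 5725 ± 682 to 3990.2 ± 148. FLNA, MYH9, VCL and TLN1 did not pass, with values between 0.017 and 0.13.

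Secreted growth factors and cytokines moved in both directions, with 15 of 38 tested members raised, 8 of them by at least 1, and 8 lowered, 3 of them by at least 1. PDGFB went from 459, 613 and 519 to 3757, 3620.5 and 3835 (log2 fold change 2.82 ± 0.11 (SE), adjusted p = 2.08e-10) and EDN1 (chr6:12290361-12297194, plus strand) from 1183, 1334 and 1415 to 5705, 5521 and 5716 (log2 fold change 2.11 ± 0.065 (SE), adjusted p = 3.03e-11). IL11, a cytokine of the interleukin-6 family known for its part in bone metastasis, rose 2.33-fold, from 4722, 5125 and 5683 to 12413, 11949 and 11839.5. PTHLH, the parathyroid hormone-related peptide, was raised from a low level, from 44.6 ± 10.9 to 88.3 ± 10.7 (0.99, adjusted p = 0.000933). All 4 factors were separated from vehicle in every library. VEGFA, VEGFC, HBEGF, PDGFA and PDGFC were raised at between 0.31 and 0.40. CCL20 and TNFSF15 were raised from low levels, from 27.1 ± 3.98 to 82.0 ± 8.46 and from 20.5 ± 7.71 to 55.8 ± 13.1. CSF1, the growth factor of macrophages, went the other way, from 8124, 8068 and 8067 to 3034, 2842 and 3051 (log2 fold change −1.44 ± 0.043 (SE), adjusted p = 2.51e-11). EDN2 fell from 184, 159.6 and 185 to 12.2, 7.32 and 11.2 (log2 fold change −4.00 ± 0.27 (SE), adjusted p = 9.67e-08) while its relative EDN1 rose. The ligands of the epidermal growth factor receptor TGFA, AREG and EREG were lowered at −0.60, −0.65 and −0.74, and BDNF at −0.48. The interleukin genes IL6 and IL1B and the chemokine gene CXCL8 did not pass, at 0.087 (adjusted p = 0.78), −0.016 (adjusted p = 0.94) and −0.20 (adjusted p = 0.52).

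**Figure D3:**
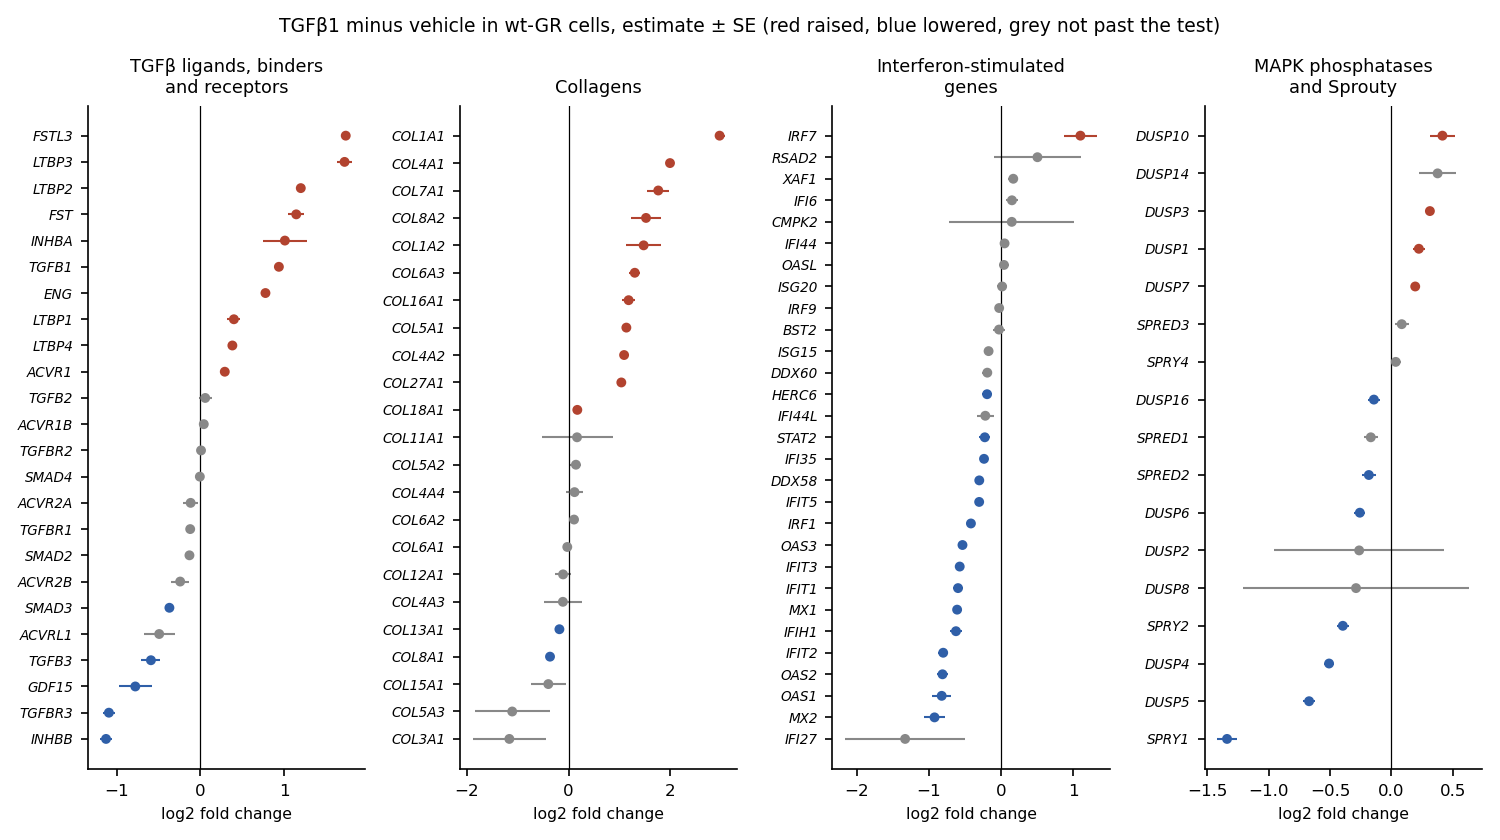
The log2 fold change of the tested members of 4 lists, 1 interferon-stimulated gene left out (x axis, TGFβ1 minus vehicle, bars are ± SE from the limma fit, n = 3 per group), in red if raised, blue if lowered and grey if not past the test. TGFβ ligands, binders and receptors split into both directions, 10 collagens lie at or above 1, and interferon-stimulated genes and MAPK feedback genes lie mostly below 0.

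Of 17 feedback inhibitors of MAP kinases 4 were raised and 7 lowered, with a median of −0.17, which was −0.046 without TGFβ1 library 1 and −0.069 with a pseudocount of 16. Sprouty proteins restrain growth factor signalling upstream of ERK, and SPRY1 went from 2167, 2318 and 2293 to 925, 819 and 938 (log2 fold change −1.34 ± 0.078 (SE), adjusted p = 2.08e-08), with SPRY2 lowered at −0.40 (adjusted p = 2.43e-05) and SPRY4 not past the test (0.035, adjusted p = 0.62). The phosphatases DUSP4, DUSP5 and DUSP6, which act on ERK, were lowered, from 40177 ± 708 to 28265 ± 1073, from 11061 ± 813 to 6936 ± 30.6 and from 25374 ± 746 to 21222 ± 462. DUSP1 and DUSP10, which act on p38 and JNK, were raised at 0.22 (adjusted p = 0.00383) and 0.41 (adjusted p = 0.00888). In the p38 cascade 5 of 23 were raised and 7 lowered, or 3 raised without TGFβ1 library 1 or 2. GADD45B, a binder of the kinase MAP3K4 known as a TGFβ target, rose 1.81-fold, from 4128 ± 149.6 to 7464 ± 229, and MAP2K6, a kinase of p38, fell 2.49-fold, from 322 ± 41.0 to 129.6 ± 13.4. MAP2K3, its relative, was lowered at −0.39 (adjusted p = 6.38e-05) and MAPK13, the p38δ gene, raised at 0.33 (adjusted p = 0.000941). MAPK14, the p38α gene, and MAP3K7, which encodes TAK1, did not pass, at 0.011 (adjusted p = 0.85) and 0.10 (adjusted p = 0.0864).

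Of 24 tested G1 regulators 4 were raised and 10 lowered, with a median of −0.14, or 2 raised without TGFβ1 library 2. CDKN1A, which encodes the inhibitor p21, went from 6281, 6385 and 6618 to 11367, 11086 and 11295 (log2 fold change 0.81 ± 0.035 (SE), adjusted p = 8.95e-10). CDKN2A and CDKN2B are not in the files used here. MYC was raised slightly, from 15734 ± 541 to 17704 ± 226 (log2 fold change 0.17 ± 0.035 (SE), adjusted p = 0.00312). The activators of S phase E2F1 and E2F2 were lowered at −0.28 (adjusted p = 0.00389) and −0.61 (adjusted p = 0.000742), as were the cyclins CCND1 and CCND3 at −0.20 (adjusted p = 0.00227) and −0.17 (adjusted p = 0.00338). Of 30 genes of replication and mitosis none was raised and 4 (13.3%) were lowered, against 11.2% and 9.82% of all genes tested. Of the 4, MCM2 kept its call with each library left out (−0.18, adjusted p = 0.00117). CDC6, PCNA and GINS1, at −0.13, −0.16 and −0.23, each lost it without TGFβ1 library 1, and CDC6 also without TGFβ1 library 3 and PCNA without vehicle library 2 or 3 or TGFβ1 library 3, with adjusted p of up to 0.073, 0.11 and 0.083. MKI67, a long transcript, stood at 61862, 41800.2 and 33134 with vehicle and at 38569, 39791 and 38846 with TGFβ1 and did not pass (−0.17, adjusted p = 0.50). In the BCL2 family MCL1, which protects cells from apoptosis, was raised at 0.45 (adjusted p = 9.40e-08), and BCL2L11, which encodes the killer protein BIM, was lowered at −0.58 (adjusted p = 0.000184). That list had 3 raised and 2 lowered of 17 (17.6% and 11.8%), against the same shares of all genes tested.

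Interferon-stimulated genes had the largest share of lowered members among the 29 lists, which were chosen with earlier results of these data known. Of 30 members 15 were lowered and 1 was raised, with a median of −0.22, or 2 raised without vehicle library 3. IFIT2, an inhibitor of viral translation, went from 4113, 4396 and 4314 to 2171, 2654 and 2549 (log2 fold change −0.80 ± 0.068 (SE), adjusted p = 9.68e-07). MX2, an antiviral GTPase, went from 523, 603 and 594 to 299, 343 and 267 (log2 fold change −0.92 ± 0.15 (SE), adjusted p = 0.000448), and its relative MX1 was lowered at −0.61 (adjusted p = 5.85e-06). No library of the treated cells reached a vehicle library for any of these. The synthetases OAS1, OAS2 and OAS3 were lowered at −0.82, −0.81 and −0.54, IFIT1 and IFIT3 at −0.60 and −0.57, and the RNA sensors IFIH1 and DDX58 at −0.63 and −0.30. The transcription factor IRF1 was lowered at −0.42 (adjusted p = 7.37e-06). ISG15, IFI44 and BST2 did not pass, with values between −0.17 and 0.048. IRF7 was the raised member, from 104 ± 19.8 to 225 ± 51.1 (log2 fold change 1.10 ± 0.23 (SE), adjusted p = 0.00336), and 60.4% of its stretches also lie on alternate scaffolds. Among the 15 largest falls at levels of at least 1 log2 CPM was CIITA, the activator of MHC class II genes, which went from 1567, 1482 and 1364 to 484, 495 and 549.96 (log2 fold change −1.53 ± 0.076 (SE), adjusted p = 4.39e-09), with 14.4% of its stretches also in another annotated gene.

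**Figure D4:**
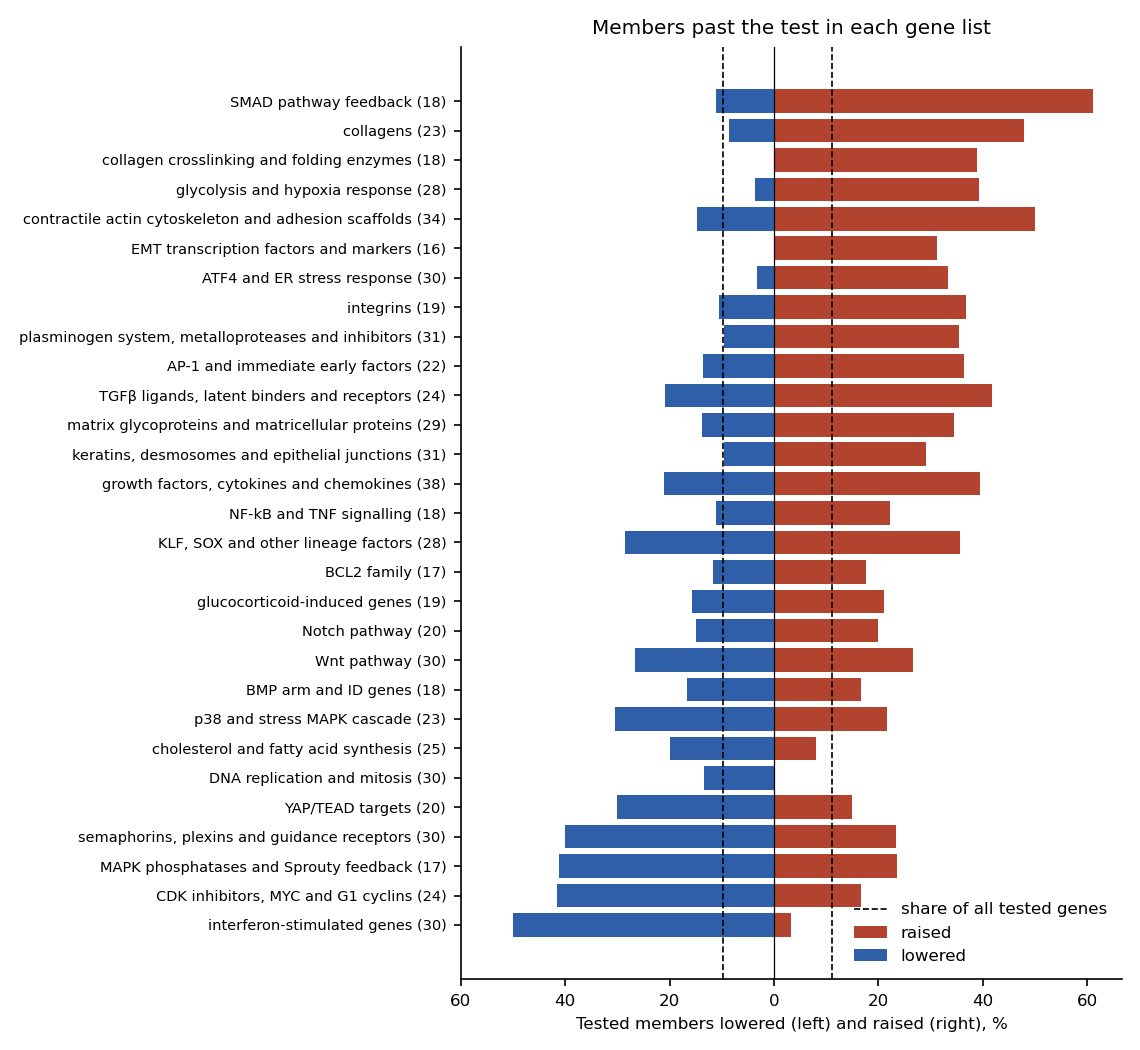
For each of 29 gene lists (tested members in brackets) the bars give the percent of tested members raised (red, right) and lowered (blue, left) by TGFβ1 at an adjusted p under 0.05, and the dashed lines the 11.2% and 9.82% of all genes tested. Genes with a mean level of at least 1 log2 CPM passed more often, with 1891 raised and 1551 lowered of 11607. SMAD feedback genes (11 raised of 18) and interferon-stimulated genes (15 lowered of 30) are at the ends of the order. The lists were chosen with earlier results of these data known.

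Of 31 tested keratin and junction genes 9 were raised and 3 lowered. KRT7 and KRT81 rose 2.05-fold, from 30593 ± 1703 to 62698 ± 1910.3, and 2.44-fold, from 16688 ± 425 to 40640.5 ± 1813, with 36.6% of the stretches of KRT81 also in other annotated genes, most of them in KRT86. KRT17 went from 17.9, 26.4 and 24.2 to 222, 187 and 181 (log2 fold change 3.06 ± 0.60 (SE), adjusted p = 0.00200), and KRT16 and the plakophilin gene PKP1 were raised from low levels, from 61.4 ± 5.17 to 204 ± 21.7 and from 3.52 ± 3.22 to 28.4 ± 6.10. KRT16 and KRT17 are keratins of stressed and wounded epithelia. KRT80 and PKP2 were lowered at −0.30 (adjusted p = 6.82e-06) and −0.43 (adjusted p = 2.22e-05), whereas KRT18 and EPCAM did not pass, at 0.019 (adjusted p = 0.85) and −0.011 (adjusted p = 0.96).

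Guidance molecules, which steer axons and moving cells, had 7 raised and 12 lowered of 30 members, with a median of −0.14. Of the neuropilins, which bind semaphorins and VEGF, NRP2 was raised 3.24-fold, from 2573, 2263 and 2194 to 7733, 7622 and 7413 (log2 fold change 1.70 ± 0.059 (SE), adjusted p = 9.24e-11), and NRP1 was lowered at −0.26 (adjusted p = 0.00438). The netrin receptor UNC5B and the ephrin receptor EPHB2 rose 2.79-fold and 2.30-fold, and SEMA7A rose 2.04-fold. SEMA3A, EFNB2 and PLXNA1 were lowered at −0.78, −0.66 and −0.63.

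Of 19 tested genes commonly induced by glucocorticoids 4 (21.1%) were raised and 3 (15.8%) lowered, against 11.2% and 9.82% of all genes tested. The median of −0.079 was −0.0098 and −0.0087 without TGFβ1 library 1 or 2. SGK1, a kinase that regulates ion channels, went from 868, 868 and 973 to 2005, 2150.01 and 2162, a 2.33-fold rise (adjusted p = 1.26e-08). ANGPTL4, GADD45B and DUSP1 were raised as given above. The classical targets FKBP5, TSC22D3 and PER1 did not pass, at −0.051 (adjusted p = 0.49), −0.0075 (adjusted p = 0.95) and −0.15 (adjusted p = 0.11), nor did the receptor gene NR3C1 (−0.12, adjusted p = 0.23). KLF15 and CEBPD were lowered, from 64.8 ± 16.3 to 30.0 ± 5.10 and from 664 ± 84.6 to 427 ± 29.2.

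Other signalling lists moved in both directions. In the Notch, Wnt, YAP and NF-κB lists 20%, 26.7%, 15% and 22.2% were raised, against 11.2% of all genes tested. Lowered were 15%, 26.7%, 30% and 11.1%, against 9.82%. In the Notch list, with 4 raised and 3 lowered of 20, or 1 lowered without vehicle library 1 or TGFβ1 library 3 and 5 without vehicle library 3, LFNG, HES1 and the ligand JAG1 were raised at 0.54 (adjusted p = 1.09e-05), 0.42 (adjusted p = 0.00208) and 0.32 (adjusted p = 0.000487). In the Wnt list, with 8 raised and 8 lowered of 30, the feedback inhibitor NKD1 was raised from a low level, from 12.1 ± 5.16 to 45.2 ± 4.81, and the ligands WNT5B and WNT5A at 0.82 and 0.32, while the co-receptor LRP5 and the ligand WNT7B were lowered at −0.60 and −0.65. YAP targets had 3 raised and 6 lowered of 20, or 1 raised without vehicle library 1 or 2 or TGFβ1 library 1 or 2 and with the wt-GR libraries alone, with AMOTL2 and AJUBA lowered at −0.50 (adjusted p = 1.14e-06) and −0.30 (adjusted p = 2.37e-05) and CYR61, listed with the matrix genes, not past the test (0.092, adjusted p = 0.33). In the NF-κB list, with 4 raised and 2 lowered of 18, BIRC3 and TNFAIP2 were lowered at −0.72 (adjusted p = 0.000307) and −0.40 (adjusted p = 0.000226).

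Of 28 genes of glycolysis and the hypoxia response 11 were raised and 1 lowered, with a median of 0.094. The glucose transporter SLC2A1 went from 43984, 44262 and 45144 to 80853, 78226 and 79475 (log2 fold change 0.84 ± 0.033 (SE), adjusted p = 2.86e-10), and PFKFB3, PFKFB4 and HK1 were raised at 0.49, 0.43 and 0.40. GAPDH, PKM and ENO1 did not pass, with values between 0.043 and 0.058. In the list of the ATF4 and endoplasmic reticulum stress responses 10 of 30 were raised and 1 lowered, led by the amino acid transporter subunits SLC3A2 and SLC7A5, both at 0.43, and with the chaperone HSPA5 at 0.25 (adjusted p = 0.000213). The counts of these 2 lists ranged from 8 to 12 and from 7 to 11 raised with single libraries left out, and 2 of the second list were lowered without vehicle library 3. Of 25 genes of cholesterol and fatty acid synthesis 2 were raised and 5 lowered, among them the fatty acid elongase ELOVL6 at −0.41 (adjusted p = 1.75e-06). Without TGFβ1 library 2 these counts were 1 and 3, and without vehicle library 2 or with the wt-GR libraries alone there were 3 lowered.

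Of the 15 largest falls at levels of at least 1 log2 CPM, CSF1 was a member of these lists. SDPR, a protein of caveolae now named CAVIN2, went from 3492, 3669 and 3433 to 1186, 1086 and 1029.7 (log2 fold change −1.68 ± 0.062 (SE), adjusted p = 1.67e-10). VIPR1, a receptor of the vasoactive intestinal peptide, fell 2.98-fold, from 3636 ± 204 to 1219 ± 60.5. NWD1 went from 407, 402 and 374 to 95.5, 106 and 114 (log2 fold change −1.90 ± 0.15 (SE), adjusted p = 6.20e-07). TFAP2C, the AP-2γ transcription factor, fell 2.71-fold, from 2595 ± 29.2 to 956 ± 55.5. F2RL3, the thrombin receptor PAR4, fell 2.83-fold, and SPNS2, which exports sphingosine-1-phosphate, fell 2.73-fold, from 3406 ± 155 to 1247 ± 57.2, while the kinase gene SPHK1 rose as given above. RGCC, PLLP, SLC37A2, FAM65C and the phosphoinositide kinase gene PIK3C2B fell 2.55-fold to 3.62-fold. No vehicle library of any of these genes reached down to a TGFβ1 library, which was a condition for this group of largest falls.

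In 40 genes every vehicle library held under 3 reads and every TGFβ1 library at least 3, and in 20 genes the reverse. Among the first the highest mean levels were those of LEFTY2, given above, and MYOZ1, a muscle protein, with 0, 2.11 and 2.11 normalized counts against 36.7, 36.6 and 30.6. Next were the chorionic gonadotropin genes CGB2, with 3.26, 0 and 0 against 35.5, 16.8 and 25.5, and CGB1, with means of 1.09 ± 1.88 against 16.6 ± 3.83, whose stretches occur in other genes for 64.4% and 78.7%. KRT14 was at 3.26, 2.11 and 2.11 against 22.2, 19.8 and 8.15, and its adjusted p of 0.0484 reached 0.16 with single libraries left out, the call being kept only without TGFβ1 library 3. Of the 20, KC6, a long non-coding RNA, had 9.78, 18.0 and 16.8 with vehicle and no read with TGFβ1, at least 4.46-fold lower than 3 reads in each library allow. Also of the 20 were SERPING1, with 9.78, 10.6 and 6.32 against 2.22, 1.46 and 2.04, LOC102724663 with 11.4, 5.28 and 8.42 against 2.22, 1.46 and 0, and OMG with means of 8.34 ± 2.10 against 1.23 ± 1.13. Their adjusted p reached 0.12, 0.075 and 0.18 with single libraries left out, and the call was kept only without vehicle library 3 for SERPING1, was lost without vehicle library 1 or TGFβ1 library 3 for LOC102724663, and was lost without any 1 library for OMG.

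The same treatment of S134A-GR cells was compared to see where the response of wt-GR cells differs. In S134A-GR cells 1860 genes were raised (10.0%) and 1615 lowered (8.69%). Of the 219 genes raised by at least 1 in wt-GR cells, 137 were raised there too, 195 had a positive value and none was lowered, and of the 206 lowered genes 97 were lowered, 178 had a negative value and none was raised. The median change of the 219 was 1.70 in wt-GR and 1.04 in S134A-GR cells, and that of the 206 was −1.45 and −0.80. The genes were chosen by their wt-GR values, which favours larger values in wt-GR cells. Of the 130 with a mean level of at least 1 log2 CPM, 120 had the same call in both lines. The test of the difference itself passed for 27 of the 425 genes, against 77 (0.414%) of all genes tested. Of the 27, 24 changed less on the log2 scale in S134A-GR cells and 3 changed more. The 3 were NEDD9, F2RL3 and AHRR, the last of them named here for its direction after its values were seen. The choice of the 425 by wt-GR values favours both a pass of this test and a smaller change in S134A-GR cells. The difference contains the same wt-GR values. The count of 27 fell to 11 without TGFβ1 library 1 or 3 and to 15 without TGFβ1 library 2 or vehicle library 2, and rose to 41 without vehicle library 3.

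**Figure D5:**
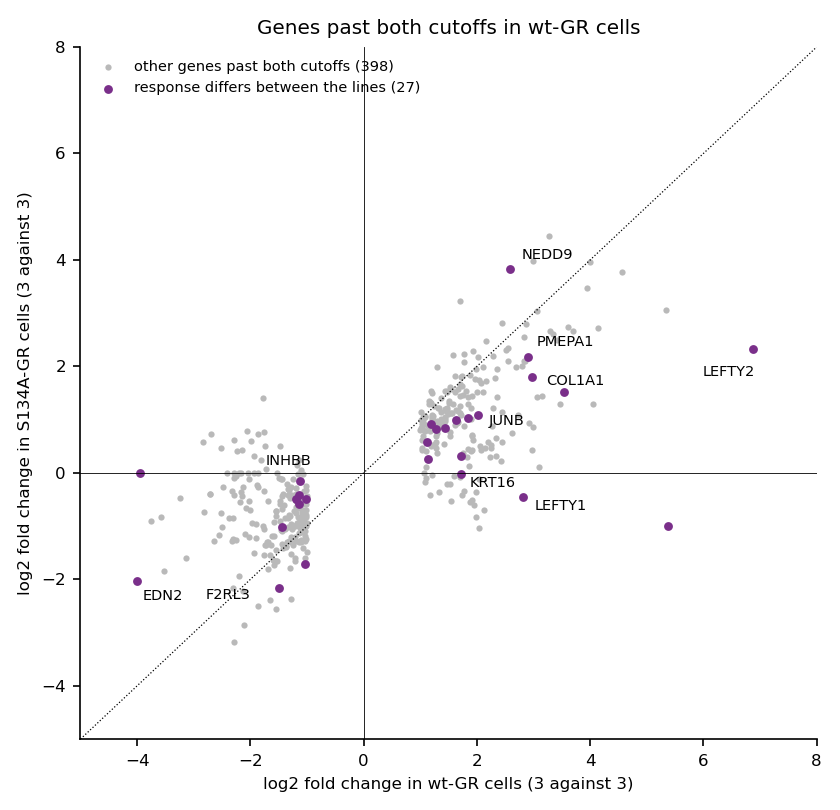
The 425 genes that changed by at least 1 in wt-GR cells, with the log2 fold change in wt-GR cells on the x axis and in S134A-GR cells on the y axis (each 3 libraries against 3), 27 genes whose responses differ in purple and the other 398 in grey, and a dotted line at equal change. Of the 27 genes 24 changed less in S134A-GR cells, LEFTY2 and COL1A1 among them, and NEDD9 lies above the line. The choice of genes by their wt-GR values favours a smaller change in S134A-GR cells.

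Genes with the smaller response in S134A-GR cells included the inhibitor PMEPA1, where S134A-GR cells went from 4369.7, 4528 and 4204 to 20685, 20344 and 18576, a log2 change of 2.18 against 2.90 in wt-GR cells (difference −0.72 ± 0.076 (SE), adjusted p = 0.000909). COL1A1 changed by 1.80 against 2.97 (difference −1.17 ± 0.14 (SE), adjusted p = 0.00265). In S134A-GR cells COL1A1 went from 2331, 2112 and 2370 to 7081, 8526 and 8163. Its vehicle level there was above that of wt-GR cells (1380, 1015 and 1063). The treated libraries of the lines overlapped, with 9418, 8448 and 8968 in wt-GR cells. JUNB and SNAI1 changed by 1.09 and 1.03 against 2.01 and 1.84 (differences −0.92 ± 0.10 (SE), adjusted p = 0.00164, and −0.81 ± 0.11 (SE), adjusted p = 0.00717). PLAU changed by 0.58 against 1.12 (difference −0.54 ± 0.056 (SE), adjusted p = 0.000909). INHBB, which fell in wt-GR cells, stood at 429.8, 426 and 451 with vehicle and at 378, 385 and 407 with TGFβ1 in S134A-GR cells (difference 0.97 ± 0.096 (SE), adjusted p = 0.000909). LEFTY1 stood at 3.77, 10.1 and 5.35 with vehicle and at 5.71, 4.05 and 2.86 with TGFβ1 there, and LEFTY2 at 0, 0 and 0 and at 1.90, 10.1 and 2.86. For this pair the S134A-GR libraries lay under every treated wt-GR library. NEDD9 rose more on the log2 scale in S134A-GR cells, from 19.8, 20.3 and 17.8 to 315, 319.9 and 231 (difference 1.24 ± 0.19 (SE), adjusted p = 0.0126). In wt-GR cells it went from 171, 172 and 191 to 1086, 1035 and 1086. F2RL3 fell more on the log2 scale in S134A-GR cells, from a mean of 1022 to 228, against 2426 to 857 in wt-GR cells. Both genes thus had lower levels in S134A-GR cells with vehicle and with TGFβ1. For SMAD7, COL4A1 and EDN1 the differences did not pass, at 0.12 ± 0.095 (SE), adjusted p = 0.72, −0.041 ± 0.076 (SE), adjusted p = 0.90, and −0.13 ± 0.092 (SE), adjusted p = 0.70. A difference that misses the threshold does not show equal responses.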

How the data were processed

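RNA of MDA-MB-231 clones with wt-GR or S134A-GR was sequenced as 75-base read pairs (TruSeq RNA, HiSeq). Per the study's methods, the authors used FastQC 0.11.7 and Trimmomatic for quality and trimming, HISAT2 for alignment (hg38), featureCounts for reads per gene and DESeq2 1.22.2 for size factors. The deposited signal is 1 table for each of the 12 libraries, with counts divided by DESeq2 size factors for 19907 symbols. The gene annotation, the strand setting and the remaining versions are not given in the sources used here. All deposited values were whole multiples of a step per library (tolerance 0.001), from which reads were recovered.

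The 18579 genes with 10 or more reads in the whole series entered limma 3.58.1 in R 4.3.3 on log2(normalized count + 1). The 4 group means of the 12 libraries were fitted with a trended moderation, and p-values were adjusted over all genes by Benjamini-Hochberg. Fold changes on this scale understate those of low genes. Folds in the text are ratios of group means. The fit was first tested on simulated data. The alternatives were edgeR 4.0.16 and DESeq2 1.42.0 on the recovered reads, other pseudocounts, filters, scaling and cutoffs, the wt-GR libraries alone, a replicate block and each library left out. The text names the 15 largest changes per direction at a mean of at least 1 log2 CPM with no overlap between groups, members of 29 lists, the 5 highest genes that went on or off, and, among these, genes whose responses differ. Some genes that this rule selects are not reported here. The members and lists were chosen with earlier results of these data known. Coordinates, transcript lengths and start sites are of GENCODE v44 canonical transcripts on hg38, matched by symbol for 16578 of the tested genes, and promoter sequence was read from hg38. Shared 75-base stretches were counted by exact match against all transcripts and the alternate scaffolds.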

Additional observations from a re-analysis of the deposited data

Results flagged for a closer look

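For 29 of the named or listed genes the response to TGFβ1 differed between the lines by the test of the difference itself (limma, adjusted p under 0.05 over all genes tested), and each is given as the log2 response of S134A-GR minus that of wt-GR cells, 3 libraries per group. Genes raised in wt-GR cells with a smaller or no rise in S134A-GR cells were LEFTY2 (−4.56), LEFTY1 (−3.27), KRT16 (−1.74), COL1A1 (−1.17), JUNB (−0.92), FST (−0.87), SNAI1 (−0.81), WNT5B (−0.75), PMEPA1 (−0.72), PLAU (−0.54), TGFB1 (−0.48), KRT81 (−0.45) and ENG (−0.24). Raised in wt-GR cells and lowered in S134A-GR cells was ITGB4 (−0.62), whose wt-GR call was lost without single libraries. Raised more in S134A-GR cells were NEDD9 (1.24) and DKK1 (0.35). Lowered less in S134A-GR cells, or not lowered there, were EDN2 (1.97), INHBB (0.97), LGR4 (0.53), CSF1 (0.42), PLXNA1 (0.35), TIMP3 (0.32) and AMOTL2 (0.32). Lowered more in S134A-GR cells were F2RL3 (−0.66), WNT7B (−0.37) and LIMA1 (−0.25). FGF5 (0.45) was lowered in wt-GR and raised in S134A-GR cells, and its wt-GR call was also lost without single libraries. TNS4 (1.04) and CDH11 (0.43) were raised in S134A-GR cells and did not pass in wt-GR cells. Each line is 1 clone, so that clone and receptor cannot be told apart.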

How the results depend on the processing

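Changes of at least 1 depend on how low levels are handled, since 147 of the 219 and 148 of the 206 have a mean under 1 log2 CPM. With a pseudocount of 16 they were 135 raised and 88 lowered, with a test against 1 (treat) 59 and 15, and with a cutoff of 1.5 they were 137 and 94. At an adjusted p under 0.01, 1285 genes were raised, 1039 lowered and 103 lowered by at least 1, and 9 responses differed between the lines. That count of 27 was 14 at the cutoff of 1.5, 55 with DESeq2 and 17 without the trend. With single libraries left out, 1508 to 2355 genes were raised, 1292 to 2022 lowered, 180 to 259 raised and 152 to 211 lowered by at least 1, and 11 to 41 differed between the lines. The count test on the recovered reads (edgeR, TMM) called 2136 raised and 1756 lowered genes, and DESeq2 2288 and 1988. Deviations of same-numbered wt-GR libraries correlated at −0.12, 0.0049 and −0.059 over 11657 genes, and those of unlike-numbered ones at −0.18 to 0.22. With 3 libraries per group these values cannot show whether a number marks a shared culture or day. With the number as a replicate block 1947 genes were raised and 1731 lowered, 215 and 188 by at least 1, and 21 differed. No named or listed gene changed direction in any of these settings while past the test, and of 205 raised and 151 lowered ones 168 and 109 kept their call in all. Depth limits the low genes, for which 3 reads in vehicle amount to 3.16 to 4.89 normalized counts. The causes of these shifts were not tested.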
